A study of Homo sapiens with 20 samples.

Results

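SPARC 5 and SPARC 0.5, neighbouring doses of the matrix protein SPARC, were compared across the transcriptome of hTCEpi, a human corneal epithelial line immortalized with telomerase. The 5 samples given the protein at 5 µg/ml (SPARC 5) were set against the 5 given 0.5 µg/ml (SPARC 0.5), the upper of the 10-fold steps of a dose series. Samples entered by their dose labels alone, 10 of the 20 in the series, and no untreated sample was used. Both groups grew in keratinocyte growth medium with its supplement, penicillin, streptomycin and calcium chloride, received the recombinant human protein and were harvested after 24 h. RNA was sequenced after ribosomal RNA had been removed enzymatically. hTCEpi is a single line, and since nothing in the labels shows the 5 replicates of a dose to be separate cultures, the p-values below measure only the spread between these samples.

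SPARC, also called osteonectin, is a secreted matricellular glycoprotein. It binds collagens and other matrix proteins and changes how cells attach to them, without being a main structural part of the matrix. The corneal epithelium rests on a basement membrane of laminins and type IV collagen, to which its basal cells are anchored by hemidesmosomes, and after a wound the cells migrate over a provisional matrix rich in fibronectin, which they grip through integrins. TGF-beta is stored in the matrix in a latent form that integrins and thrombospondin can release, and it acts through SMAD proteins to raise matrix genes together with its own inhibitors.

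At SPARC 5, 12 of 26 matrix genes, 7 of 13 integrin genes and 15 of 28 TGF-beta response genes were called higher than at SPARC 0.5, and none of these lists had a gene called lower. All gene lists were written with earlier results of these data known, so their counts are a description and no independent test. FN1, ITGB6 and THBS1 each rose by 1.02 to 1.11 on the log2 scale, and PMEPA1, FLRT2 and TLL1 by 1.27 to 1.35. Lower at SPARC 5 were the basal keratin gene KRT15, the growth factor feedback inhibitor SPRY1 and genes of glutathione and iron handling such as GSR and FTL. The quasi-likelihood test of edgeR called 1159 of 20989 genes at an adjusted p under 0.05 (5.52% of the genes tested), of which 752 rose (3.58%) and 407 fell (1.94%). Counts of every gene list are to be read beside these shares. Calls were concentrated at higher levels. Of the 11135 genes tested with a mean of 5 counts-per-million or more in either group, 690 rose and 390 fell. The share called was therefore higher among such genes than over all genes, which matters for lists of well-expressed genes. In 1091 genes (5.2%) the counts-per-million (CPM) of the groups did not overlap, SPARC 5 being higher in 682 (3.25%) and lower in 409 (1.95%). Most changes were small. The median log2 fold change was 0.216 among genes that rose and −0.164 among those that fell, against −0.003 over all genes tested, and only 40 of the rises and 6 of the falls passed 2-fold. Scaling moved the split between directions. With library sizes alone, 592 genes were called higher and 672 lower, so that 46.8% of calls were rises rather than 64.9%, and the median of all genes moved to −0.021. No gene called here had the opposite sign under any scaling or other setting tried. The plot of fold change against level shows these calls.

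**Figure D1:**
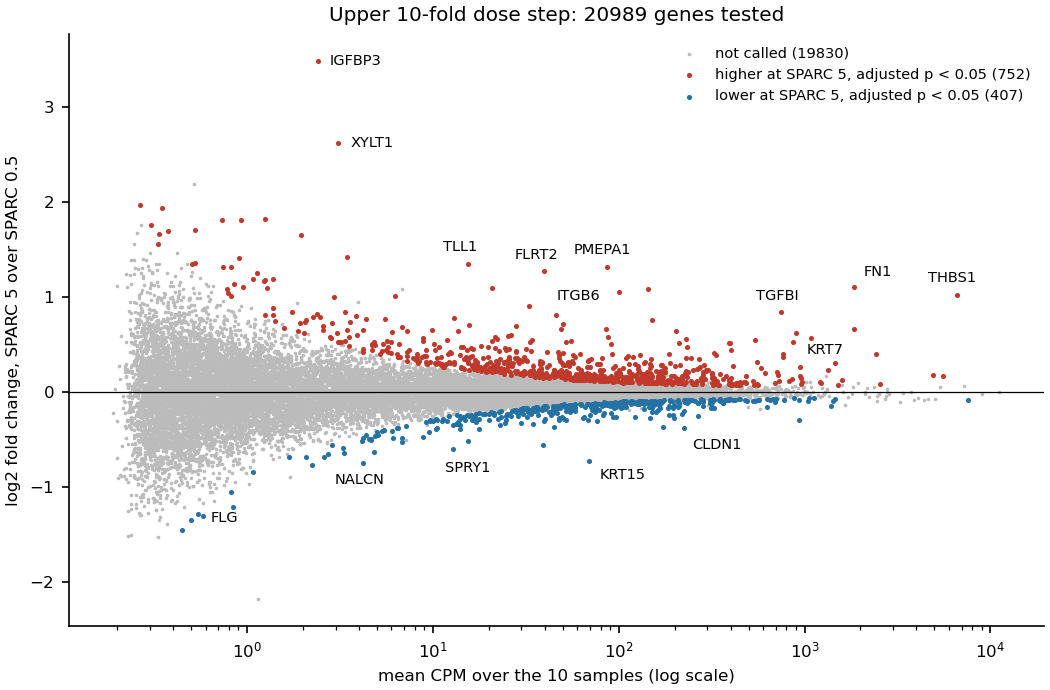
Log2 fold change of SPARC 5 over SPARC 0.5 (y axis) against mean counts-per-million over the 10 samples (x axis, log scale) for each of the 20989 genes tested. Red points are the 752 genes that rose, blue points the 407 that fell and grey points the 19830 not called; XYLT1 and IGFBP3 are the highest of the labelled genes, and KRT15 is the lowest of the labelled genes at a mean of 10 CPM or more.

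Total counts ran from 31955358 to 50112286 per sample and did not separate the groups (exact permutation p = 0.381, 2-sided, 252 arrangements), while TMM factors did (1.0012 to 1.0107 at SPARC 0.5, 0.986 to 0.999 at SPARC 5). Mitochondrial transcripts took between 3.04% and 3.87% of counts. Of the 10 samples, SPARC 5 replicates 2 and 5 stood apart. The first principal component (13.8% of variance) separated the doses (exact permutation p = 0.0079), with SPARC 0.5 samples between −26.63 and −9.27. Replicate 2 lay at 47.52 on it and the other SPARC 5 samples between −0.98 and 11.14. Replicate 5 lay at −49.05 on the second (12.8%, the others between −9.78 and 22.95). Replicate 2 had the lowest mitochondrial share (3.04%, against 3.67% to 3.71% at SPARC 0.5). The correlation of gene level, relative to the 10-sample mean, with GC content was highest in replicate 2 (0.164) and lowest in replicate 5 (−0.099). Without these libraries 892 genes were called, 612 higher and 280 lower, and 813 of the 1159 kept their call. The part of TMM factors and mitochondrial share in the calls was not tested beyond the fit with library sizes alone. The epithelial markers KRT5, KRT14, TP63, CDH1 and EPCAM had between 2198 and 557011 counts per sample. Of the corneal markers, PAX6 stood at 7.65 and 7.55 CPM in SPARC 0.5 and SPARC 5, KRT3 at 1.55 and 1.78 CPM, and KRT12, the hallmark keratin of differentiated corneal epithelium, had at most 1 count in any sample, where 3 counts would be 0.0594 to 0.0932 CPM. The transcript of SPARC itself had 0 to 23 counts and was not tested. Some markers of other cell types were absent and others were detected. KERA and LUM of stromal cells, TYR of melanocytes, TFF1 of the goblet list and HLA-DRA of immune cells had no count in any sample. The summed level of 13 stromal markers, led by PDPN, COL1A1 and ACTA2, was 54.0 to 57.7 CPM at SPARC 0.5 and 54.6 to 63.1 at SPARC 5. The sums were 4.16 to 5.39 and 2.77 to 4.25 CPM for 12 immune markers, led by CD74. For 11 conjunctival and goblet markers, led by MUC1, they were 5.59 to 7.56 and 5.46 to 7.29. For 12 endothelial and melanocyte markers, led by the melanocyte genes MITF, PMEL and MLANA, they were 10.9 to 12.6 and 10.2 to 14.2. Means were under 1 CPM for 9 stromal, 11 immune, 8 conjunctival and goblet, and 9 endothelial and melanocyte markers. The only one of these markers called, COL1A1 (log2 0.43 ± 0.13, adjusted p = 0.0334), was not called without SPARC 5 replicate 3, 4 or 5 or SPARC 0.5 replicate 3, 4 or 5 (adjusted p = 0.0564 to 0.212).

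Fibronectin, the product of FN1 (ENSG00000115414, chromosome 2, 215360440 to 215436172, minus strand, GRCh38), is the main protein of provisional matrix. FN1 stood at 1044, 1227, 1203, 1164 and 1188 CPM in the SPARC 0.5 samples and 2469, 2487, 2577, 2614 and 2396 CPM in the SPARC 5 samples. The groups did not overlap, and FN1 rose by 1.11 ± 0.04 on the log2 scale (± SE, adjusted p = 4.17e-07). THBS1 (ENSG00000137801, chromosome 15, 39581079 to 39599466, plus strand) encodes thrombospondin, a matricellular protein that can activate latent TGF-beta. It stood at 4339.9, 4317, 4239, 4298 and 4688 CPM in the SPARC 0.5 samples and 9605, 8875, 8759, 8759 and 8431 CPM in the SPARC 5 samples, again without overlap (log2 1.02 ± 0.04, adjusted p = 2.92e-07). In bulk RNA, more RNA per cell and a larger share of cells expressing a gene cannot be told apart. TGFBI (ENSG00000120708, chromosome 5, 136028895 to 136063818, plus strand) makes a TGF-beta-induced adhesion protein of the corneal matrix, whose mutant forms cause corneal dystrophies. It had the smallest p of all genes, with 547, 529, 533, 529 and 547 CPM in the SPARC 0.5 samples and 1015, 948, 956, 933 and 943 CPM in the SPARC 5 samples, a log2 fold change of 0.84 ± 0.02 (adjusted p = 5.09e-48). Within each dose its 5 values lay close together compared with the gap between doses.

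Other members with large fold changes act in making, trimming or contacting matrix. XYLT1 (ENSG00000103489, chromosome 16, 17101769 to 17470881, minus strand), the xylosyltransferase that starts glycosaminoglycan chains on proteoglycans, stood at 0.963, 0.728, 0.772, 0.899 and 0.998 CPM in the SPARC 0.5 samples and 5.34, 4.93, 5.71, 4.96 and 5.82 CPM in the SPARC 5 samples (log2 2.62 ± 0.17, adjusted p = 8.19e-22). The lowest SPARC 5 sample lay well above the highest SPARC 0.5 sample. TLL1, a tolloid-like metalloprotease that trims procollagens, stood at 8.04, 9.02, 8.99, 9.04 and 8.65 CPM in the SPARC 0.5 samples and 23.6, 20.2, 22, 23.5 and 22.3 CPM in the SPARC 5 samples (log2 1.35 ± 0.07, adjusted p = 2.15e-26). FLRT2, a membrane protein with leucine-rich and fibronectin-like repeats, stood at 24.3, 23.3, 24.2, 22.6 and 21.5 CPM in the SPARC 0.5 samples and 63, 51.8, 51.5, 57.2 and 56.3 CPM in the SPARC 5 samples (log2 1.27 ± 0.05, adjusted p = 9.49e-35). Neither gene's groups overlapped. The plot of single samples shows the same gap for 9 genes that rose.

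Promoters are shown for 4 of these risers, because SMAD proteins bind DNA at CAGAC and its reverse complement GTCTG. No rule set which 4 were shown, so their matches describe only these genes. Each runs from 250 bases before to 50 after the start of transcription, 5′ to 3′ on the gene's strand, from RefSeq on GRCh38.p14, and capitals mark CAGAC or GTCTG and, for TEAD proteins, CATTCC or its reverse complement GGAATG. XYLT1 is at chr16:17470911-17471210, minus strand, TLL1 at chr4:165872987-165873286, plus strand, THBS1 at chr15:39580829-39581128, plus strand and FN1 at chr2:215436019-215436318, minus strand.
XYLT1: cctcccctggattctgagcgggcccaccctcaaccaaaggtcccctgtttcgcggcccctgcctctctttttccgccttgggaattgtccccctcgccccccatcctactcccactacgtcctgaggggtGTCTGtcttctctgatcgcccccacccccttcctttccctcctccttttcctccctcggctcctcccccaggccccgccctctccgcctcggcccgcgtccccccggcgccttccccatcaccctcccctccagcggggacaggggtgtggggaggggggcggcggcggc
TLL1: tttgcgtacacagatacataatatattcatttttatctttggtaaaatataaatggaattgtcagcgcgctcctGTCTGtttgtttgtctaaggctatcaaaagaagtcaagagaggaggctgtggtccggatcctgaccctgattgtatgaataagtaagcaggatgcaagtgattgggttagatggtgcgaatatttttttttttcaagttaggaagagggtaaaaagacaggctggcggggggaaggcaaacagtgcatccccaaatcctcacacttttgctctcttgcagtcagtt
THBS1: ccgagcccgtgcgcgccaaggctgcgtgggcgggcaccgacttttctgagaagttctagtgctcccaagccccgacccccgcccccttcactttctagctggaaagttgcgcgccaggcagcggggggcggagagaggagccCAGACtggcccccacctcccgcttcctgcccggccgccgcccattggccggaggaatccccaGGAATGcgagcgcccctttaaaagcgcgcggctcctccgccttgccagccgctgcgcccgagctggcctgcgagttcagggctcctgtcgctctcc
FN1: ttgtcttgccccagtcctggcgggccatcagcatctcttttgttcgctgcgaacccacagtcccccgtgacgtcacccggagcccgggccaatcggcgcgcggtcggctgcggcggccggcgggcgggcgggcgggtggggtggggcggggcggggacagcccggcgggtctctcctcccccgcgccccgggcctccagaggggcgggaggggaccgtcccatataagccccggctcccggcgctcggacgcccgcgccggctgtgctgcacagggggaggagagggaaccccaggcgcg
XYLT1, TLL1 and THBS1 hold 1 match each to the SMAD letters, THBS1 also 1 to the TEAD letters, and FN1 none in this window. These letters are common. Among genes that rose, 591 of 752 had a promoter in the table, and 45.0% of those held the SMAD letters on either strand, against 39.7% of 312 promoters of genes that fell and 43.4% of 11606 promoters of genes tested. CATTCC or its complement stood in 13.4%, 9.0% and 11.1% of the same sets, and the AP-1 letters TGANTCA in 7.1%, 5.8% and 4.9%. Each share among genes that rose was above that of genes tested, a difference that was not tested. Over all 27305 promoters of the table, which include genes not tested here, the shares for SMAD, TEAD and AP-1 letters were 45.0%, 14.0% and 7.8%. Each of those was equal to or above the share among genes that rose.

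**Figure D2:**
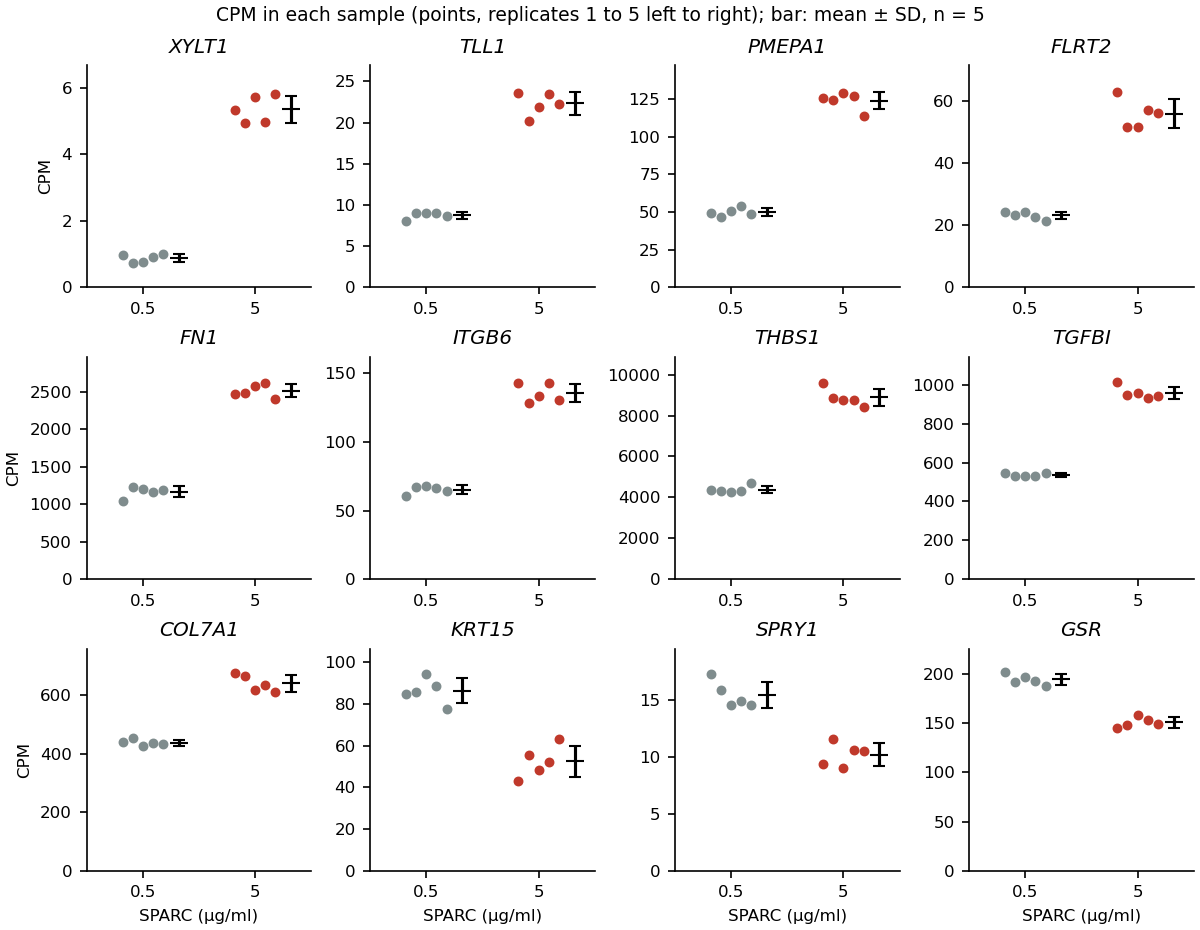
Counts-per-million (y axes, each from 0) in each of the 5 SPARC 0.5 samples (grey) and the 5 SPARC 5 samples (red) for 12 genes, with the mean and SD of each group beside the points. In all 12 genes the groups do not overlap; the first 9 are higher and KRT15, SPRY1 and GSR lower at SPARC 5.

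Of the list of matrix and matricellular genes, 12 of 26 tested rose and none fell, where 3.58% of all genes tested rose, with a median log2 fold change of 0.245 against −0.003 over all genes. Without SPARC 5 replicates 2 and 5, 10 rose. CCDC80, a secreted protein that binds heparin and matrix, went from 33.3 ± 2.29 to 58.5 ± 5.18 CPM (log2 0.81 ± 0.05, adjusted p = 1.56e-21), and COL12A1, a collagen that lies on the surface of fibrils and is found in the cornea, from 290.4 ± 9.25 to 379.5 ± 13.6 CPM (log2 0.39 ± 0.03, adjusted p = 2.47e-22). The list also held 14 genes not called. Those include the collagen genes COL5A1 (−0.10 ± 0.39) and COL5A2 (−0.01 ± 0.22), and SMOC1, a relative of SPARC (−0.36 ± 0.25, adjusted p = 0.561). SPOCK1, another relative with a SPARC-like calcium-binding domain, was a low-level gene that rose from 0.562 ± 0.376 to 1.95 ± 0.558 CPM (log2 1.82 ± 0.30, adjusted p = 4.81e-06).

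Basement membrane and hemidesmosome genes anchor the epithelium to its matrix. Of 25 tested, 12 rose and 2 fell (median 0.114), with 12 rises left without SPARC 5 replicates 2 and 5, while the falls became 4 with library sizes alone or with GC content and length corrected. COL7A1, the anchoring fibril collagen that ties the basement membrane to the stroma, stood at 440.1, 453, 425, 436 and 434 CPM in the SPARC 0.5 samples and 677, 666, 616, 635 and 612 CPM in the SPARC 5 samples. Its groups did not overlap (log2 0.55 ± 0.02, adjusted p = 1.21e-31). COL4A1, a chain of the type IV collagen network, went from 175 ± 1.33 to 249 ± 10.8 CPM (log2 0.51 ± 0.03, adjusted p = 7.17e-28). The laminin chain genes LAMA3 and LAMB3 were added after their values were seen: LAMA3 went from 708 ± 27.9 to 1021 ± 50.5 CPM (log2 0.53 ± 0.03) and LAMB3 from 870.2 ± 63.4 to 1293 ± 61.1 CPM (log2 0.57 ± 0.05). The hemidesmosome integrin genes ITGA6 (0.27 ± 0.02) and ITGB4 (0.23 ± 0.02) rose by less. HSPG2, which encodes perlecan, was 1 of the 2 that fell (log2 −0.20 ± 0.04, adjusted p = 0.00378); it was chosen after its values were seen, as was FRAS1 (−0.13 ± 0.03), the other. With all 20 samples in 1 model HSPG2 was not called (adjusted p = 0.111).

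Among integrin genes 7 of 13 rose and none fell (median 0.192), though 1 fell with library sizes alone, with GC content and length corrected or without SPARC 5 replicate 5. ITGB6 (ENSG00000115221, chromosome 2, 160099666 to 160200313, minus strand) encodes the beta subunit of an epithelial integrin that binds fibronectin and releases latent TGF-beta. It stood at 60.8, 67.2, 68.1, 66.5 and 63.9 CPM in the SPARC 0.5 samples and 143, 128, 134, 143 and 131 CPM in the SPARC 5 samples, a rise of 1.05 ± 0.03 (adjusted p = 5.04e-41) with no overlap. ITGB6 shares 20.6% of its exon bases with AC092153.1 on the same strand, and the effect of this on its counts was not tested. Its partner chain gene ITGAV was not called (log2 0.09 ± 0.03, adjusted p = 0.0658). ITGA2, a collagen-binding subunit, rose by 0.30 ± 0.03, and ITGA5, the alpha chain of the classical fibronectin receptor, by 0.29 ± 0.04 (from 69.7 ± 4.68 to 85.5 ± 4.43 CPM). ITGA3 was level between the groups (0.00 ± 0.02, 95% interval −0.04 to 0.04). SPARC's own receptors and partners, a list that shares ITGA5, ITGB4, ITGB5, ITGB1 and ITGAV with the integrins, had 5 rises and 2 falls among 16, with 1 fall without SPARC 0.5 replicate 3. One of the rises was MRC2, an endocytic collagen receptor (from 48.8 ± 1.91 to 60.0 ± 4.44 CPM, log2 0.30 ± 0.04, adjusted p = 2.07e-07). The collagen receptor kinase gene DDR1 was not called (0.05 ± 0.03, 95% interval −0.01 to 0.10), nor was VEGFA, a growth factor that SPARC can bind (0.00 ± 0.03, 95% interval −0.07 to 0.07; named after its value was seen).

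Genes of focal adhesions and actin fibres, which carry force from integrins to the cytoskeleton, rose in 16 of 35 cases with no fall, at a median of 0.097, and in 13 without SPARC 5 replicates 2 and 5. These were small rises. LIMA1, an actin-bundling LIM protein, led by p (from 214 ± 5.44 to 274 ± 10.7 CPM, log2 0.36 ± 0.03). TAGLN2, a transgelin, rose by 0.22 ± 0.02. ACTB, cytoplasmic beta-actin, rose by 0.17 ± 0.02 (adjusted p = 2.43e-13), while VCL, the focal adhesion protein vinculin, stood at 0.00 ± 0.03 (95% interval −0.05 to 0.05). ACTB, THBS1, AHNAK (0.18 ± 0.02), FLNA (0.09 ± 0.02) and KRT6A were among the 6 called genes of highest CPM, a level not divided by gene length. The nuclear long noncoding RNA MALAT1, the other of these, was lower (from 7796 ± 245 to 7377 ± 173 CPM, log2 −0.08 ± 0.02, adjusted p = 0.00119) with overlapping groups, and limma-voom did not call it (adjusted p = 0.122).

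Enzymes that modify, cleave and cross-link collagen were counted as a separate list: 8 of 21 rose and none fell (median 0.163), though only 5 rose without SPARC 5 replicates 2 and 5. Besides TLL1, P3H2, a prolyl hydroxylase active on type IV collagen, rose (from 79.5 ± 4.04 to 105 ± 6.39 CPM, log2 0.40 ± 0.04, adjusted p = 2.85e-14), as did the lysyl hydroxylase gene PLOD2 (0.16 ± 0.03) and the lysyl oxidase-like gene LOXL2 (0.38 ± 0.09). LOX, the founding lysyl oxidase, was not called at 0.39 ± 0.13 (adjusted p = 0.0687). Among proteases and their inhibitors 8 of 24 rose and none fell (median 0.055). ADAMTS6 led by fold among those at 5 CPM or more (from 4.14 ± 0.372 to 8.39 ± 1.01 CPM, log2 1.01 ± 0.11, adjusted p = 5.41e-11), and MMP14, the membrane collagenase, rose by 0.21 ± 0.03 (from 219 ± 6.61 to 254 ± 10.3 CPM). CTSV and CTSB, lysosomal cathepsins, rose by 0.34 ± 0.04 and 0.19 ± 0.03. MMP1 was not called (−0.02 ± 0.25, 95% interval −0.52 to 0.48), nor was MMP2 (0.23 ± 0.15, adjusted p = 0.513).

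The next list held plasminogen system genes and serpins, only some of which check plasminogen activation. SERPINE2, protease nexin 1, rose from 38.2 ± 2.69 to 62.8 ± 6.22 CPM (log2 0.72 ± 0.05) and SERPINB5, maspin, from 259.6 ± 5.77 to 317 ± 12.5 CPM (log2 0.29 ± 0.03). The activator genes themselves were not called: PLAU stood at 0.15 ± 0.06 (adjusted p = 0.199), PLAT at −0.22 ± 0.09 (adjusted p = 0.14) and the receptor gene PLAUR at 0.16 ± 0.08 (adjusted p = 0.32). In all, 5 of 14 of this list rose and none fell (median 0.119).

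Of the proteoglycan and glycosaminoglycan list, 10 of 36 rose and 2 fell (median 0.04), 4 falling with library sizes alone. After XYLT1 the largest rise by p was CHST11, a chondroitin sulfotransferase (from 11.9 ± 0.97 to 19.3 ± 1.3 CPM, log2 0.71 ± 0.07, adjusted p = 3.56e-12). NDST1, which sulfates heparan chains, rose by 0.19 ± 0.02. HAS3, which makes hyaluronan, fell (from 38.6 ± 2.44 to 30.7 ± 2.61 CPM, log2 −0.33 ± 0.05, adjusted p = 2.55e-06). XYLT2, the second xylosyltransferase, was level (0.00 ± 0.03, 95% interval −0.07 to 0.07), as was the main epithelial syndecan gene SDC1 (0.00 ± 0.02, 95% interval −0.04 to 0.04).

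Genes known to respond to TGF-beta rose in 15 of 28 cases and fell in none, with a median of 0.266. The same count rose without SPARC 5 replicates 2 and 5 and with library sizes alone. PMEPA1 (ENSG00000124225, chromosome 20, 57648392 to 57711536, minus strand), which traps receptor-activated SMADs and so limits the pathway, stood at 49.2, 46.5, 51, 53.7 and 48.6 CPM in the SPARC 0.5 samples and 126, 125, 129, 127 and 114 CPM in the SPARC 5 samples. The gap between the groups was wider than the range within either (log2 1.32 ± 0.04, adjusted p = 7.36e-46). ANGPTL4, a secreted lipase inhibitor, rose from 37.9 ± 3.79 to 60.2 ± 2.75 CPM (log2 0.66 ± 0.05, adjusted p = 6.34e-18). LTBP2, an elastic fibre protein named as a member of the latent TGF-beta binding protein family, rose from 114 ± 2.99 to 149 ± 4.28 CPM (log2 0.39 ± 0.03, adjusted p = 1.83e-18). SMAD7, the inhibitory SMAD and named after its value was seen, rose from 13.9 ± 1.43 to 17.9 ± 2.06 CPM (log2 0.37 ± 0.08, adjusted p = 0.000498). ID1 was not called (−0.24 ± 0.13, adjusted p = 0.361), nor was CCN2, connective tissue growth factor (0.17 ± 0.07, adjusted p = 0.156).

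Ligands, receptors and SMADs of the pathway formed another list: 5 of 26 rose and none fell (median 0.046), and 3 rose without SPARC 5 replicates 2 and 5 or without SPARC 0.5 replicate 2. TGFB1 went from 194 ± 4.45 to 215 ± 7.25 CPM (log2 0.15 ± 0.03, adjusted p = 1.6e-05) and the BMP receptor gene BMPR2 from 79.7 ± 3.03 to 89.2 ± 3.65 CPM (log2 0.16 ± 0.04). TGFB2 was not called (−0.12 ± 0.08, adjusted p = 0.488), nor were the receptor gene TGFBR2 (0.01 ± 0.02, 95% interval −0.03 to 0.06) and SMAD3 (−0.06 ± 0.03, adjusted p = 0.359). TGFBR1 was called at 0.14 ± 0.04 (adjusted p = 0.0162), but not without SPARC 5 replicate 5 (adjusted p = 0.0623) or without SPARC 0.5 replicate 2 (0.128) or 3 (0.0771).

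The list plot sets the members' fold changes side by side.

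**Figure D3:**
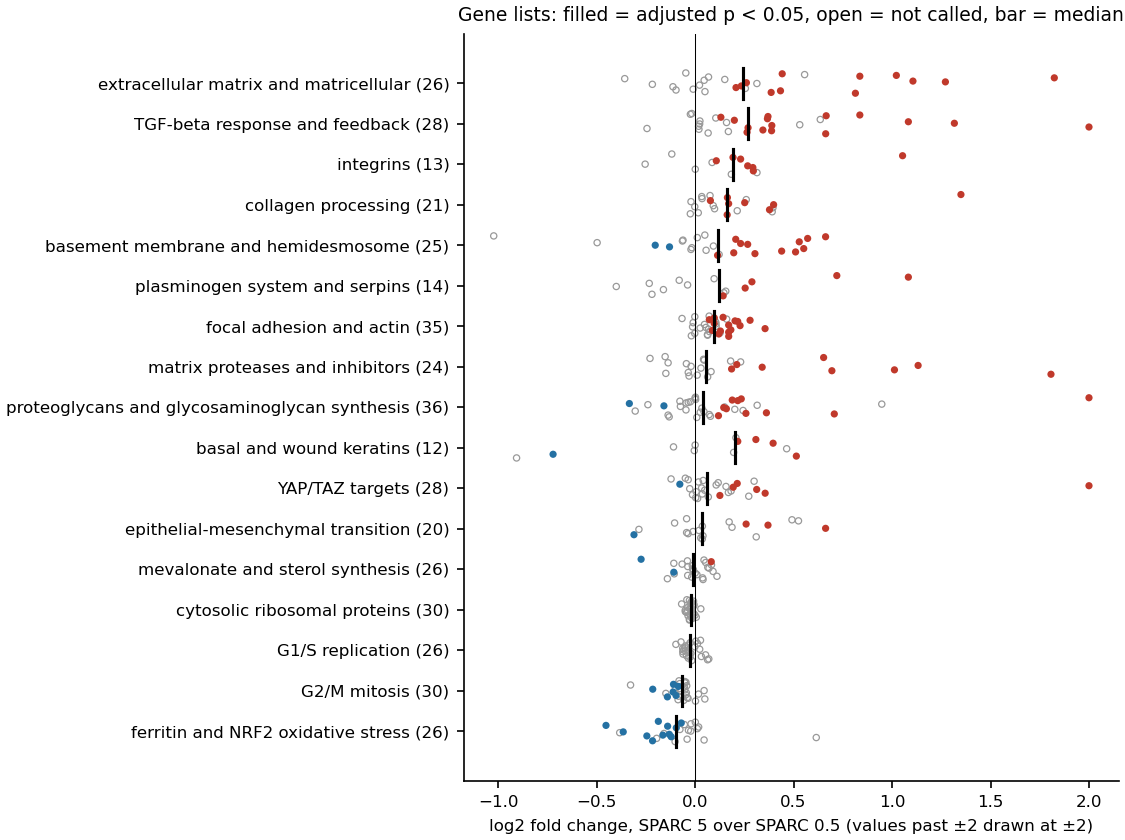
Log2 fold change of SPARC 5 over SPARC 0.5 (x axis) for every tested member of 17 gene lists (rows, number tested in brackets); filled points were called, red higher and blue lower, open points were not, and bars mark medians. IGFBP3 and XYLT1 are drawn at 2. Medians run from 0.266 for TGF-beta response genes to −0.099 for ferritin and NRF2 genes.

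Of genes tied to epithelial-mesenchymal transition, the loss of epithelial for migratory traits, 3 of 20 rose and 1 fell (median 0.037). That was 20.0% called, against 5.52% of all genes tested. SNAI2, a repressor that basal epithelial cells also express, rose from 104 ± 5.21 to 135 ± 7.53 CPM (log2 0.37 ± 0.03, adjusted p = 4.95e-14). EPCAM, an epithelial adhesion molecule, fell from 84.7 ± 2.64 to 68.3 ± 1.64 CPM (log2 −0.31 ± 0.04, adjusted p = 1.05e-10), with no overlap. CDH1, E-cadherin, was level (0.03 ± 0.03, 95% interval −0.04 to 0.09), and VIM, vimentin, was not called at 0.52 ± 0.49 (adjusted p = 0.701). ZEB1 (0.49 ± 0.55, adjusted p = 0.759) and CDH2 (0.31 ± 0.15, adjusted p = 0.292) were not called either.

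Targets of YAP and TAZ, coactivators that respond to adhesion and cell tension, gave 6 rises and 1 fall among 28 (median 0.058), the fall being lost without SPARC 5 replicate 1 or 2 or SPARC 0.5 replicate 1 or 4. F3, tissue factor, rose from 493 ± 21.8 to 613 ± 23.5 CPM (log2 0.31 ± 0.03, adjusted p = 7.22e-14) and CCN1, a matricellular protein, from 202 ± 11.7 to 259 ± 9.79 CPM (log2 0.36 ± 0.03, adjusted p = 8.6e-13). NT5E, an ecto-nucleotidase, rose by 0.21 ± 0.02. ANKRD1, often taken as a marker of this pathway, was not called (0.27 ± 0.26, adjusted p = 0.71). In the insulin-like growth factor list 3 of 11 rose and none fell, against 2 rises and 2 falls with library sizes alone and 3 and 2 with GC content and length corrected. INSR, the insulin receptor gene and 1 of these rises, was not called with library sizes alone (adjusted p = 0.0533) or by limma-voom (0.057), nor without any 1 of SPARC 5 replicates 1 to 3 and SPARC 0.5 replicates 1, 2, 3 and 5 (0.0679 to 0.22). IGF1R, the receptor, rose from 183 ± 5.19 to 221 ± 4.56 CPM (log2 0.27 ± 0.03, adjusted p = 2.19e-13). IGFBP3, which carries these factors and is a TGF-beta target, stood at 0.0621, 0.312, 0.178, 0.994 and 0.38 CPM in the SPARC 0.5 samples and 5.9, 4.5, 4.46, 4.42 and 2.83 CPM in the SPARC 5 samples. Its groups did not overlap, but the SPARC 0.5 values rested on few counts and ranged widely, so its fold was imprecise (log2 3.48 ± 0.49, 95% interval 2.38 to 4.59, adjusted p = 0.00166).

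Keratins form the intermediate filaments of epithelia. KRT15 (ENSG00000171346, chromosome 17, 41513743 to 41522529, minus strand), which marks basal and limbal cells, was the second largest fall at 5 CPM or more. It stood at 84.9, 85.9, 94.2, 88.7 and 77.8 CPM in the SPARC 0.5 samples and 43.2, 55.5, 48.3, 52.2 and 63 CPM in the SPARC 5 samples (log2 −0.72 ± 0.10, adjusted p = 0.00279). The groups did not overlap, although SPARC 5 values spread widely. KRT14, the basal partner keratin, rose from 322 ± 23.6 to 459.7 ± 42.1 CPM (log2 0.51 ± 0.07, adjusted p = 0.00353), while KRT5, with which it pairs, was level (0.00 ± 0.02, 95% interval −0.03 to 0.03). Wound keratin genes KRT6A (from 2103 ± 123 to 2767 ± 114 CPM, log2 0.40 ± 0.04, adjusted p = 0.000767) and KRT6C (0.31 ± 0.05) rose, but these near-identical copies share reads and their split is uncertain. In all 4 of 12 basal and wound keratins rose and 1 fell. Among simple keratins, KRT7 stood at 683, 729.6, 721, 711 and 705 CPM in the SPARC 0.5 samples and 1084, 1094, 1102, 1102 and 1062 CPM in the SPARC 5 samples. This was a rise without overlap (log2 0.62 ± 0.02, adjusted p = 1.21e-40), whereas KRT18 fell (from 297 ± 2.11 to 269 ± 6.29 CPM, log2 −0.15 ± 0.02) and KRT8 was not called (−0.19 ± 0.09, adjusted p = 0.253).

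Markers of limbal progenitors and corneal identity moved in both directions, 3 up and 4 down of 22 (median −0.005). SOX9 rose from 33.9 ± 1.45 to 41.4 ± 1.84 CPM (log2 0.29 ± 0.05, adjusted p = 6.86e-06) and KLF4, a differentiation factor, by 0.25 ± 0.06. ALDH3A1, the corneal crystallin dehydrogenase, fell from 5.34 ± 0.44 to 3.77 ± 0.593 CPM (log2 −0.50 ± 0.13, adjusted p = 0.00962). TP63, the master regulator of basal cells (0.03 ± 0.02, 95% interval −0.02 to 0.08), and PAX6, that of the eye (−0.02 ± 0.10, 95% interval −0.23 to 0.18), were not called. NGFR fell (log2 −0.33 ± 0.08, adjusted p = 0.00627) with overlapping groups, and was not called without SPARC 5 replicate 1 (adjusted p = 0.0637). NGFR shares 22.3% of its exon bases with AC015656.1, and PAX6 25.2% with ELP4, each on the other strand. Of 14 genes of stratified differentiation none rose and 2 fell. PPL, periplakin of the cornified envelope, fell from 161 ± 7.55 to 133 ± 3.8 CPM (log2 −0.28 ± 0.03, adjusted p = 1.06e-11). The other was FLG, filaggrin, which went from 0.776 ± 0.2 to 0.319 ± 0.118 CPM, a call that leaving out SPARC 5 replicates 1, 3 or 4 or SPARC 0.5 replicates 1 to 4 ended (adjusted p from 0.0391 to between 0.0731 and 0.114).

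Of 23 junction genes 2 rose and 1 fell (13.0% called, against 5.52% of all genes), and 2 fell with library sizes alone or without SPARC 5 replicate 5. The 5.52% includes low-level genes, which were called less often. The fall was CLDN1, the tight junction protein claudin-1. It stood at 286, 248, 236, 246 and 261 CPM in the SPARC 0.5 samples and 198, 193, 186, 197 and 205 CPM in the SPARC 5 samples (log2 −0.38 ± 0.04, adjusted p = 6.06e-05), without overlap. DSP, desmoplakin, rose by 0.10 ± 0.02 (adjusted p = 6.73e-05). CLDN4 (−0.11 ± 0.25, adjusted p = 0.911) and OCLN, occludin (0.05 ± 0.15, adjusted p = 0.934), were not called.

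Genes of the NRF2 oxidative stress response were called in 1 direction. NRF2 drives genes that make and use glutathione and NADPH, and the ferritin chains store iron. Of this list 11 of 26 fell and none rose (median −0.099 against −0.003 over all genes), 9 without SPARC 5 replicates 2 and 5 and 12 with library sizes alone. The share called was 42.3%, against 5.52% of all genes tested. The falls came to 6 without SPARC 0.5 replicate 3 and 7 without SPARC 5 replicate 1 or SPARC 0.5 replicate 1. GSR, glutathione reductase, stood at 202, 192, 197, 193 and 187 CPM in the SPARC 0.5 samples and 146, 148, 159, 154 and 149 CPM in the SPARC 5 samples. Its groups did not overlap (log2 −0.37 ± 0.03, adjusted p = 2.12e-18). FTL, ferritin light chain, fell from 203 ± 5.16 to 171 ± 6.85 CPM (log2 −0.25 ± 0.03, adjusted p = 4.08e-11). TXNRD1, thioredoxin reductase, fell from 172 ± 4.47 to 152 ± 4.92 CPM (log2 −0.19 ± 0.03). NQO1 was not called (−0.08 ± 0.03, adjusted p = 0.0859), and HMOX1, heme oxygenase, was not either (−0.02 ± 0.22, 95% interval −0.46 to 0.41).

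Of the mitotic genes, 6 of 30 fell and none rose (median −0.065), but 3 fell without SPARC 5 replicates 2 and 5 and 9 with library sizes alone. Leaving out 1 sample gave 2 without SPARC 5 replicate 1 or SPARC 0.5 replicate 3, and 3 without SPARC 5 replicate 2 or SPARC 0.5 replicate 4. With all 10 samples 20.0% of the list was called, against 5.52% of all genes tested. HMMR, a spindle protein, fell from 59.2 ± 2.28 to 51 ± 3.55 CPM (log2 −0.22 ± 0.04, adjusted p = 0.000222) and the checkpoint kinase gene BUB1B from 92.6 ± 3.26 to 84 ± 2.02 CPM (log2 −0.14 ± 0.03). None of the 26 G1/S replication genes was called (median −0.027; 2 fell with library sizes alone), and MYC stood at 0.00 ± 0.02 (95% interval −0.05 to 0.05). Of 21 histone genes 3 fell (median −0.042), 7 with library sizes alone, 6 without SPARC 5 replicate 2 and 1 without SPARC 5 replicate 4 or SPARC 0.5 replicate 3. CDKN1A, the cell cycle inhibitor p21, rose from 12.1 ± 1.1 to 15.8 ± 1.03 CPM (log2 0.39 ± 0.08, adjusted p = 0.000228).

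In the EGFR list, which holds the main growth factor receptor of the corneal epithelium, its ligands and its brakes, 3 rose and 2 fell of 25 (median −0.003), with 1 fall left without SPARC 5 replicate 1, 2 or 3 or SPARC 0.5 replicate 2 or 3. The share called was 20.0%, against 5.52% of all genes tested. SPRY1 (ENSG00000164056, chromosome 4, 123396795 to 123403760, plus strand), a feedback inhibitor of receptor kinases, stood at 17.4, 15.9, 14.6, 15 and 14.6 CPM in the SPARC 0.5 samples and 9.37, 11.6, 9.02, 10.6 and 10.5 CPM in the SPARC 5 samples. This fall had no overlap (log2 −0.60 ± 0.08, adjusted p = 2.75e-08). The ligand genes NRG1 (from 169.8 ± 6.27 to 209.5 ± 10.6 CPM, log2 0.30 ± 0.03) and AREG (from 159.5 ± 7.71 to 187 ± 5.37 CPM, log2 0.23 ± 0.03) rose. EGFR itself, named after its value was seen, was not called (0.05 ± 0.02, adjusted p = 0.167), except without SPARC 0.5 replicate 1 (adjusted p = 0.0191). Immediate early genes gave 5 rises and 1 fall of 24. KLF6 rose from 132 ± 4.87 to 162 ± 4.31 CPM (log2 0.30 ± 0.03, adjusted p = 2.18e-13) and JUN from 92.1 ± 5.03 to 106 ± 6.28 CPM (log2 0.20 ± 0.04), while FOS (−0.31 ± 0.13, adjusted p = 0.187) and EGR1 (−0.19 ± 0.09, adjusted p = 0.39) were not called.

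Other large changes lay outside the lists. PTPRK, a receptor phosphatase of cell contacts, stood at 117, 107, 109, 113 and 116 CPM in the SPARC 0.5 samples and 207, 189, 186, 181 and 187 CPM in the SPARC 5 samples (log2 0.76 ± 0.03, adjusted p = 3.74e-33), with no overlap. SGK1, a serum-induced kinase, rose from 23 ± 2.5 to 42.9 ± 2.83 CPM (log2 0.90 ± 0.06, adjusted p = 1.08e-21), SULT1B1, a sulfotransferase, from 1.88 ± 0.392 to 5.01 ± 0.593 CPM (log2 1.42 ± 0.16, adjusted p = 4.97e-11), and the long noncoding RNA AC037198.1 from 13.3 ± 1.14 to 28.5 ± 2.11 CPM (log2 1.09 ± 0.07). AC037198.1 (ENSG00000276107, chromosome 15, 39586561 to 39587293, plus strand) lies in an intron of THBS1 on the same strand, so its reads cannot be told from unspliced RNA of THBS1. NALCN, a sodium leak channel, had the largest fall at 5 CPM or more. It stood at 5.28, 4.96, 5.66, 4.64 and 6.03 CPM in the SPARC 0.5 samples and 3.19, 3.02, 4.15, 2.85 and 2.61 CPM in the SPARC 5 samples (log2 −0.74 ± 0.14, adjusted p = 5.98e-05), without overlap. CYP1B1, a cytochrome P450, fell from 5.9 ± 0.658 to 3.79 ± 0.549 CPM (log2 −0.63 ± 0.13, adjusted p = 0.000319), the kinase gene WNK2 from 8.06 ± 0.754 to 5.59 ± 0.907 CPM (log2 −0.53 ± 0.11), SUSD2 from 18.3 ± 1.37 to 12.8 ± 1.48 CPM (log2 −0.51 ± 0.08) and the fatty acid transporter gene SLC27A5 from 7.98 ± 1.00 to 5.69 ± 0.288 CPM (log2 −0.49 ± 0.11). FAM72B fell by 0.48 on the log2 scale, but its near-identical copies share reads, so that value is uncertain.

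Calls for 3 of the 12 largest falls did not hold when certain libraries were left out 1 at a time. In those fits their log2 fold changes lay between −0.54 and −0.42. SYT12, a synaptotagmin, went from 46.4 ± 4.47 to 31.5 ± 4.7 CPM (log2 −0.56 ± 0.11, adjusted p = 0.0196) and was not called without SPARC 5 replicate 5 (adjusted p = 0.0585) or SPARC 0.5 replicate 2 (0.0519) or 4 (0.0506). RGCC, a cell cycle regulator, went from 5.44 ± 1.11 to 3.83 ± 0.552 CPM with overlapping groups (log2 −0.50 ± 0.14, adjusted p = 0.0121) and was not called without SPARC 0.5 replicate 1 (0.0729) or 4 (0.0765). MAP3K14-AS1 (log2 −0.50 ± 0.13, adjusted p = 0.00975) was not called without SPARC 0.5 replicate 2 (0.0552) or 3 (0.0855), and as an antisense RNA its reads cannot be told from those of MAP3K14 where strand is not counted. Among genes between 0.5 and 5 CPM, the noncoding AL049775.1 rose from 0.94 ± 0.233 to 2.98 ± 0.697 CPM (log2 1.65 ± 0.21, adjusted p = 5.14e-09) and PLSCR3, a scramblase, from 0.669 ± 0.146 to 1.6 ± 0.438 CPM (log2 1.25 ± 0.27, adjusted p = 0.000787). AL049775.1 (chromosome 14, 85524432 to 85529988, minus strand) lies beside FLRT2, which starts at 85530144 on the plus strand. It shares 25.5% of its exon bases with AL049775.3 on the other strand. Whether its rise is separate from that of FLRT2 was not tested. PLSCR3 shares 76.3% of its exon bases with the readthrough gene TMEM256-PLSCR3, so that value is uncertain.

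The upper step could be set against the lower one, SPARC 0.5 over SPARC 0.05, in a model of the 15 samples of the 3 doses, in which both steps share the SPARC 0.5 samples. The lower step called 63 of 22213 genes (0.284%), of which 52 were higher (0.234%) and 11 lower (0.0495%). The test of the difference between steps called 172 genes (0.774%), 117 with the larger value over the upper step (0.527%) and 55 with the larger value over the lower step (0.248%). Without SPARC 0.5 replicate 3 or 4 the difference was called for 105 and 94 genes. The 752 genes that rose over the upper step had a median log2 fold change of 0.043 over the lower step, and 32 of them were called there. For the 407 that fell the median was 0.009, and 4 were called. Of the rises, 114 had a called difference between steps, and of the falls 48. Which genes enter these sets was fixed by the upper step, so their larger size over that step is no independent result.

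PMEPA1 stood at 40.4 ± 3.37, 50.1 ± 2.73 and 125 ± 5.96 CPM at 0.05, 0.5 and 5 µg/ml. Its lower step was 0.31 ± 0.04 (adjusted p = 6.75e-06), and the upper step exceeded it by 1.01 ± 0.07 (adjusted p = 9.96e-17). XYLT1 stood at 0.663 ± 0.379, 0.877 ± 0.119 and 5.38 ± 0.411 CPM, a difference between steps of 2.26 ± 0.39 (adjusted p = 0.00012). For FLRT2 the difference was 1.02 ± 0.09 (adjusted p = 4.3e-14) and for TLL1 0.90 ± 0.14 (adjusted p = 2.34e-05). In these genes most of the rise from 0.05 to 5 µg/ml fell in the upper step. FN1 and THBS1 rose over both steps: FN1 stood at 882 ± 69, 1171 ± 71.6 and 2523 ± 90.2 CPM, with a lower step of 0.41 ± 0.06 (adjusted p = 0.0083) and a difference of 0.70 ± 0.10 (adjusted p = 0.00376). PTPRK and COL7A1 were not called over the lower step (0.06 ± 0.03 and 0.05 ± 0.02), and their steps differed (adjusted p = 7.53e-16 and 9.62e-16). IGFBP3 and KRT15 had no called difference (1.82 ± 1.08, adjusted p = 0.719, and −0.49 ± 0.19, adjusted p = 0.438).

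**Figure D4:**
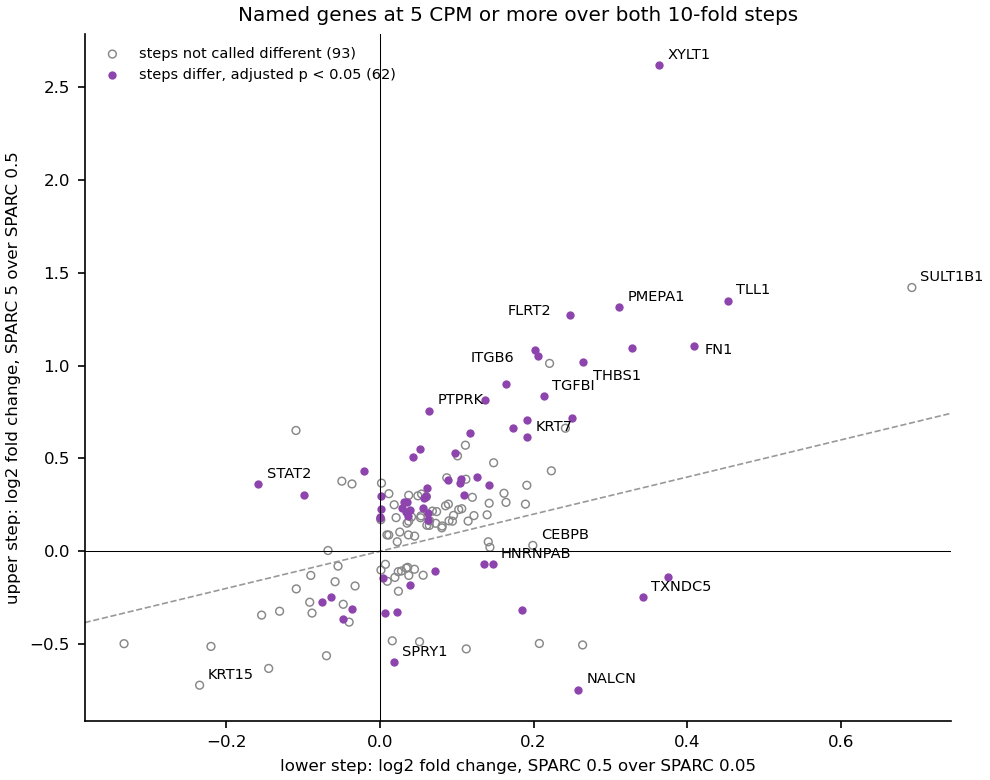
Log2 fold change over the upper step (y axis) against that over the lower step (x axis) for the 155 named genes at 5 CPM or more in either group; both steps share the SPARC 0.5 samples, and the dashed line marks equal steps. Filled points are the 62 genes whose steps differed. Most plotted genes were chosen by their upper-step call and some by their step difference, so this number is no independent result. Over all genes, 172 of 22213 differed (0.774%). XYLT1, TLL1, PMEPA1 and FLRT2 lie far above the line, and NALCN and SPRY1 below it.

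In other genes the upper step was the lower of the 2 steps. NALCN stood at 4.48 ± 0.472, 5.34 ± 0.556 and 3.18 ± 0.599 CPM at the 3 doses, with a lower step that was not called (0.26 ± 0.13, adjusted p = 0.622) and a difference between steps of −1.0 ± 0.23 (adjusted p = 0.00738), not called without SPARC 0.5 replicate 3 (adjusted p = 0.0518) or 5 (0.0579). SPRY1 was not called over the lower step (0.02 ± 0.08, adjusted p = 0.982) and its steps differed by −0.62 ± 0.13 (adjusted p = 0.00343). TXNDC5, a disulfide isomerase of the endoplasmic reticulum, shares 60.6% of its exon bases with the readthrough gene BLOC1S5-TXNDC5, so its counts are uncertain. It stood at 13.2 ± 1.81, 16.7 ± 1.12 and 14.1 ± 0.857 CPM: it rose over the lower step (0.34 ± 0.08, adjusted p = 0.0167) and fell over the upper one (log2 −0.25 ± 0.07, adjusted p = 0.0272). That difference between steps (−0.59 ± 0.13, adjusted p = 0.00695) was not called without SPARC 0.5 replicate 4 (adjusted p = 0.0969). The upper step of TXNDC5 was not called either without SPARC 5 replicate 5 (0.0903) or SPARC 0.5 replicate 4 (0.141), nor, by narrower margins, without SPARC 5 replicate 1 or 2 or SPARC 0.5 replicate 1.

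Of 61 genes called in either direction over the lower step and tested here, 32 were called higher and 4 lower over the upper step. In 22 the 95% interval of the upper step lay within 0.2 log2 of 0. TMSB10, the actin monomer binder thymosin beta-10, led these by p. It stood at 638 ± 14.4, 703 ± 26.6 and 729 ± 26.3 CPM over the 3 doses, with a lower step of 0.14 ± 0.02 (adjusted p = 9.87e-05) and an upper step of 0.05 ± 0.02 (adjusted p = 0.249). CEBPB, a transcription factor of stress and differentiation, stood at 59.6 ± 3.04, 68.5 ± 3.6 and 70.0 ± 3.55 CPM (upper step 0.03 ± 0.04), and the corepressor gene TLE5 had an upper step of 0.02 ± 0.03. For TMSB10, CEBPB and TLE5 the difference between steps was not called (adjusted p = 0.459, 0.403 and 0.41). HNRNPAB, an RNA-binding protein, stood at 292 ± 7.76, 324 ± 11.6 and 309 ± 7.2 CPM, and its steps did differ (−0.22 ± 0.04, adjusted p = 0.000947). Some upper steps were called under other settings. That of HNRNPAB, −0.07 ± 0.02 here, was called without SPARC 5 replicate 2 (adjusted p = 0.0427), and that of TMSB10 without SPARC 0.5 replicate 5 (0.0473) and, at 0.07 log2, with GC content and length corrected beside a replicate block (0.00761). The histone gene H2AC6, whose reads may be shared with other histone copies, stood at 213 ± 7.74, 234 ± 4.87 and 223 ± 8.98 CPM, and its upper step of −0.07 ± 0.03 was called without SPARC 5 replicate 2 (adjusted p = 0.035) and with library sizes alone (0.0297), as was that of HNRNPAB (0.0141). The steps of H2AC6 differed (−0.20 ± 0.05, adjusted p = 0.00745), but not without SPARC 0.5 replicate 3 (adjusted p = 0.0623).

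**Figure D5:**
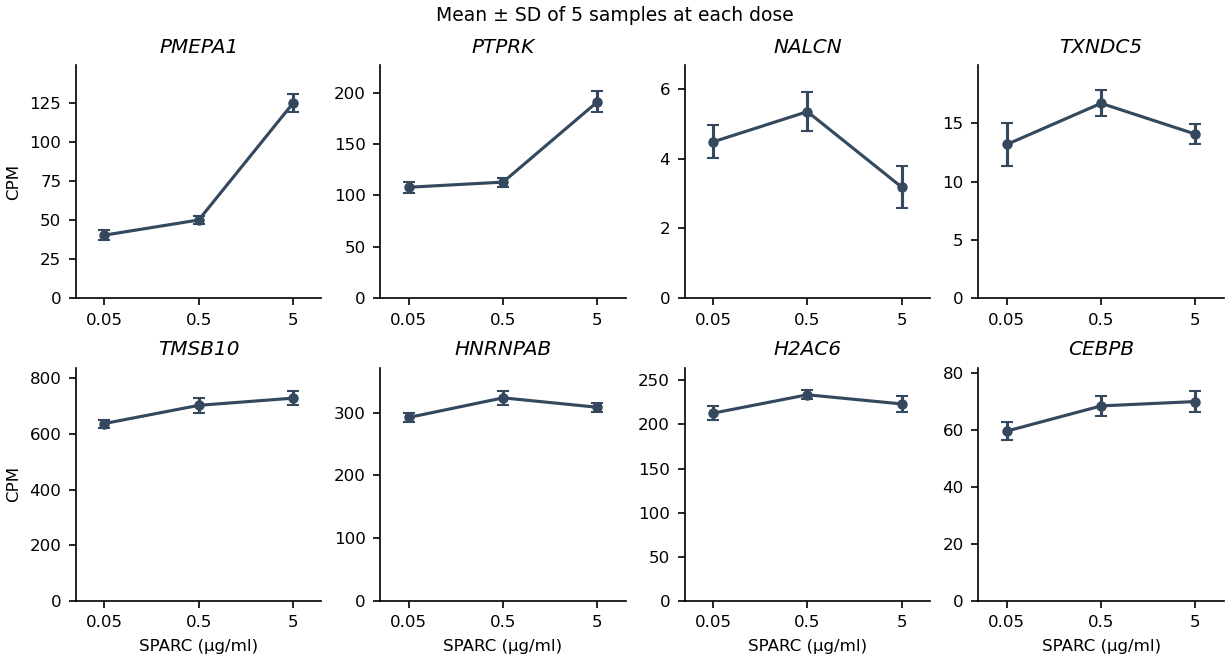
Mean counts-per-million (y axes, each from 0) with SD over 5 samples at 0.05, 0.5 and 5 µg/ml SPARC (x axes) for 8 genes. PMEPA1 and PTPRK rise mainly over the upper step, NALCN and TXNDC5 are highest at 0.5 µg/ml, and TMSB10, HNRNPAB, H2AC6 and CEBPB rise over the lower step, with no called change over the upper one.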

How the data were processed

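Counts of reads per Ensembl gene were deposited by the authors as whole numbers. STAR 2.7.9a, featureCounts 2.0.3, Salmon 1.5.2 and build GRCh38 are named in the submitters' processing notes; neither the annotation release nor the strand setting is stated in the labels. Of 60871 entries for 60671 identifiers, repeated entries of equal counts were kept once. Counts of the 10 samples were scaled by TMM to counts-per-million (CPM), filtered by filterByExpr (minimum count 10) and tested with the 2-sided quasi-likelihood F-test of edgeR 4.0.16 (robust; R 4.3.3), with Benjamini-Hochberg adjustment over all genes and a threshold of 0.05. "Rose" and "fell" mean called. The coefficient of biological variation was 6.69%, and replicate pairs differed by a chi-square per gene of 4.51 to 9.55. Steps were compared in the 15 samples of 3 doses. DESeq2 1.42.0 and limma 3.58.1 served as alternatives.

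Groups, members and gene lists were chosen with earlier results of these data known. Lists share genes, so their counts are not separate. TGFBI is in the matrix and TGF-beta response lists, and LTBP2 in both TGF-beta lists. ITGB4 and ITGA6 are in the integrin and basement membrane lists. Named genes were, among called genes at 5 CPM or more, the 12 largest rises and falls, 6 smallest p and 6 highest CPM; the 3 largest rises and falls between 0.5 and 5 CPM; up to 4 called genes of smallest p per list; 5 largest step differences each way; and the 5 of smallest p among genes called over the lower step whose upper step had an interval within 0.2 log2 of 0. List members not called may be named, while genes outside the rule are marked as added. Some genes that the rule selects are not reported here. Positions come from GENCODE 29 on GRCh38. Intervals are 95%. SE and intervals of the fit include the spread between samples. PCR copies cannot be told from molecules, so detection floors given from counts cover counting error only.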

Additional observations from a re-analysis of the deposited data

Results flagged for a closer look

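In 264 groups of 5 samples, for the genes named above and below, 16 had a highest or lowest sample whose gap to the nearest other sample was above 0.71 of the group's range; chance alone flags about 1 in 20 groups. In SPARC 0.5 replicate 1 this was the highest value of ACSS2 (116 CPM, nearest 111). In SPARC 0.5 replicate 1 this was the lowest value of HSPA5 (852 CPM, nearest 902). In SPARC 0.5 replicate 5 this was the highest value of KRT3 (2.07 CPM, nearest 1.52), LAMA3 (757 CPM, nearest 699), P3H2 (86.7 CPM, nearest 78.7) and THBS1 (4688 CPM, nearest 4339.9). In SPARC 5 replicate 1 this was the highest value of COL12A1 (403 CPM, nearest 377), ITGA6 (1116 CPM, nearest 1022), KRT12 (0.0263 CPM, nearest 0), S100A10 (318 CPM, nearest 292) and TGFBI (1015 CPM, nearest 956). In SPARC 5 replicate 3 this was the highest value of PAX6 (8.88 CPM, nearest 7.33). In SPARC 5 replicate 5 this was the highest value of FRAS1 (75.7 CPM, nearest 74.3), SPARC (0.631 CPM, nearest 0.163) and TGFBR1 (72.7 CPM, nearest 69.7). In SPARC 5 replicate 5 this was the lowest value of PMEPA1 (114 CPM, nearest 125).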

How the results depend on the processing

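The count of 1159 genes called stayed within 1.5 times under every setting: 892 to 1337 outside single-sample removals, and 877 to 1113 with one sample left out (584 to 709 higher, 293 to 404 lower). Falls, 407, became 672 with library sizes alone. DESeq2 called 1337 genes and limma-voom 1137. A fit with the replicate number as a block called 1221 genes, and 186 for the difference between steps. The numbers did not pair the samples, since deviations of same-numbered samples correlated between −0.014 and 0.056 and 1 of 5 SPARC 5 samples correlated best with its own number. Of the genes chosen by rule, FLG (adjusted p = 0.0544) and INSR (0.0508) lost their call under the block. The difference between steps, 172 genes with 117 higher and 55 lower, ran from 94 to 174 in all, 74 to 122 higher and 20 to 66 lower with one sample left out. The lowest came without SPARC 0.5 replicate 4 (94, 74 and 20) and replicate 3 (105, 77 and 28). With all 20 samples in 1 model 31 were lower. The cause was not tested. Of 164 genes named by the rule or added and tested, 125 kept their sign and side of the threshold under every setting, and none changed sign. Removing SPARC 5 replicates 2 and 5 was planned with earlier results of these data known, and counting each gene list under other settings was added after seeing the data. Depth limits the genes under 1 CPM most.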

Other observations

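Other gene lists were called at shares from 0 upward, beside 5.52% of all genes tested. That background share was higher among genes at 5 CPM or more. Of 30 cytosolic ribosomal protein genes none was called (median −0.021; 4 fell with library sizes alone), and of 13 mitochondrially encoded genes none either (median −0.097; 1 fell without SPARC 5 replicate 1). Sterol synthesis gave 1 rise and 2 falls of 26 (11.5% called), with 0 to 2 rises and 1 to 3 falls when 1 sample was left out. In fatty acid synthesis 3 of 20 rose, all desaturase genes: FADS3 (log2 0.23 ± 0.03, adjusted p = 1.1e-10), FADS2 (log2 0.23 ± 0.04, adjusted p = 1.5e-06) and SCD5 (log2 0.25 ± 0.05, adjusted p = 0.000113), while ACSS2, which activates acetate, fell (log2 −0.16 ± 0.03, adjusted p = 0.000227). The falls of this list became 3 with library sizes alone and 4 with GC content and length corrected, beside 3 rises under each. Of 28 hypoxia and glycolysis genes 3 rose, led by NDRG1, a stress-responsive protein (from 159 ± 4.81 to 246 ± 10.7 CPM, log2 0.64 ± 0.03, adjusted p = 4.85e-33), and CA9, a standard hypoxia target, was not called (−0.20 ± 0.17, adjusted p = 0.661). Only 1 of the list rose without SPARC 5 replicate 1, SPARC 0.5 replicate 1 or SPARC 0.5 replicate 3, and limma-voom called 5 higher. Metal-handling genes gave 2 rises of 16, and 1 without SPARC 5 replicate 1, 3 or 4 or SPARC 0.5 replicate 1, 2, 3 or 4, and MT2A, a metallothionein, stood at 0.04 ± 0.06 (95% interval −0.10 to 0.17).

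Shares called in the lists that follow ran from 5.3% for clock genes to 33.3% for S100 genes, beside 5.52% of all genes tested. In the endoplasmic reticulum list 6 of 30 rose and 1 fell, 3 rising with library sizes alone or without SPARC 5 replicate 4. The chaperone genes CALR (from 663 ± 13.3 to 766 ± 14.9 CPM, log2 0.21 ± 0.02, adjusted p = 9.34e-13) and HSPA5 (from 896 ± 25.5 to 1004 ± 25.9 CPM, log2 0.16 ± 0.02, adjusted p = 4.47e-09) rose, and PSAT1, a serine synthesis enzyme, fell (log2 −0.18 ± 0.03, adjusted p = 5.59e-06), while DDIT3 was not called (0.17 ± 0.18, adjusted p = 0.751). Inflammatory genes gave 2 rises and 3 falls of 30, and 4 rises without SPARC 0.5 replicate 5: the complement gene C3 (log2 −0.32 ± 0.06, adjusted p = 8.13e-05) and SAA1, serum amyloid A (log2 −0.34 ± 0.07, adjusted p = 0.000121), fell, and PTGS2, cyclooxygenase 2, rose from 3.28 ± 0.383 to 5.13 ± 0.74 CPM (log2 0.65 ± 0.14, adjusted p = 0.000597). CXCL8 was not called (0.03 ± 0.30, 95% interval −0.57 to 0.64). Interferon genes gave 1 rise and 2 falls of 29, 1 of the falls being lost in 9 of the 10 removals of 1 sample, the rise being STAT2 (from 24.3 ± 2.24 to 31.3 ± 1.47 CPM, log2 0.36 ± 0.06, adjusted p = 2.55e-06). In the Notch list the ligand gene JAG1 rose (log2 0.18 ± 0.02, adjusted p = 1.63e-08) and the feedback gene NRARP fell (log2 −0.33 ± 0.06, adjusted p = 1.05e-05); in the Wnt list the secreted antagonist gene SFRP1 (log2 0.22 ± 0.03, adjusted p = 7.24e-10) and the ligand gene WNT5B (log2 0.48 ± 0.07, adjusted p = 9.77e-08) rose. Among 24 p53 targets 4 rose, led by TP53I3 (log2 0.43 ± 0.06, adjusted p = 7.31e-08), with MDM2 not called (−0.03 ± 0.03, 95% interval −0.10 to 0.04). BHLHE40 was the only clock gene called of 19 (log2 0.26 ± 0.04, adjusted p = 1.51e-07). Of 9 S100 genes 3 rose, S100A10 (log2 0.25 ± 0.03, adjusted p = 7.54e-12), S100A11 (log2 0.22 ± 0.03, adjusted p = 1.67e-10) and S100A16 (log2 0.14 ± 0.03, adjusted p = 6.43e-05).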
